A study of Mus musculus with 12 samples.

Results

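The comparison described here set 3T3-L1 adipocytes given alpha-linolenic acid (ALA) together with a delta-6-desaturase inhibitor against 3T3-L1 adipocytes given the inhibitor alone. It asks how transcript levels differed with ALA when the first desaturation step of ALA was blocked. Genes were included where their mean log2 signal over the 6 arrays compared was above 6.18, the mean of those arrays' medians, a filter that does not use the difference between the groups. This gave 10023 named genes of 19480, and 11025 transcript clusters of 22104 with the unnamed ones. A transcript cluster is the array's unit for 1 transcribed locus. At the edge of the filter, Slc29a2 (mean 6.1761) lay just outside and Tas1r3 (mean 6.1763) just inside.

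The study measured RNA on 12 whole-transcript arrays of the mouse preadipocyte line 3T3-L1, at day 8 of differentiation into adipocytes, with 3 arrays for each of 4 treatments. The group with ALA and inhibitor received 50 µM ALA and 5 µM of the inhibitor, and the group with the inhibitor alone received 5 µM of it and no added ALA. The further groups were ALA alone at 50 µM and a vehicle control. All cells went through a standard differentiation cocktail and then maintenance medium with insulin at 5 µg/ml, and treatment ran from day 0 to day 8. Each group had 1 array from cells of passage 6, 1 of passage 7 and 1 of passage 8, and differences were taken within a passage. As every passage comes from 1 cell line, p-values here reflect how much these arrays vary and not how cell lines or animals vary. The labels state fatty-acid-free albumin (2%) for the medium with ALA, and ethanol and DMSO for the control. The labels do not say whether these were matched between the 2 groups compared, so ALA and its carrier cannot be told apart.

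ALA is a plant omega-3 fatty acid that cells lengthen and desaturate into longer omega-3 fatty acids. The delta-6-desaturase, encoded by Fads2, acts first, followed by elongases such as Elovl5 and the delta-5-desaturase encoded by Fads1. In adipocytes and liver, polyunsaturated fatty acids are known to lower the activity of SREBP transcription factors, which drive genes of sterol and fatty acid synthesis, and to act as ligands of PPAR nuclear receptors and of the surface receptor encoded by Ffar4.

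The 6 arrays compared resembled each other closely, with correlations across clusters of 0.99 to 0.993 and medians of 6.14 to 6.2. The ALA array of passage 7 correlated at 0.976 to 0.987 with the other arrays. It does not enter the mean difference between the groups compared. It does enter the model's estimate of the spread, the values of ALA against control and the interaction given below. The other 11 arrays correlated at 0.989 to 0.994 among themselves. All 9 adipocyte markers measured from the fixed set of 10 lay above the array median. Their mean log2 signal was 11.43 to 11.53 with ALA and inhibitor and 11.37 to 11.54 with the inhibitor alone. Of the 4 macrophage and 4 endothelial markers measured, 0 lay above the array median, and 1 of 4 muscle markers and 2 of 4 osteoblast and chondrocyte markers did. Of the 3 preadipocyte and stromal markers measured, 2 lay above the array median. The 3 averaged 8.64 to 8.79 with ALA and inhibitor and 8.56 to 8.71 with the inhibitor alone. In bulk RNA such as this, fewer cells of a type and less RNA per cell cannot be told apart.

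No gene above the array median passed the test after adjustment, and the differences with ALA in the presence of the inhibitor were small. With limma and Benjamini-Hochberg adjustment over all 22104 clusters, 0 clusters reached an adjusted p under 0.05 (0% of the clusters above the median). The smallest adjusted p was 0.78 among clusters above the median. At the unadjusted p under 0.01 named in the series' design, 40 clusters above the median were called, or 0.363% of 11025, with 26 higher (0.236%) and 14 lower (0.127%). The excess of higher calls rested on passage 8: the split was 14 higher and 14 lower without its ALA plus inhibitor array, 11 and 13 without its inhibitor array, and 3 and 3 without all 4 arrays of that passage. Among named genes above the median these were 35 (0.349% of 10023), with 22 higher (0.219%) and 13 lower (0.13%). At an unadjusted p under 0.05 the named genes were 236 (2.35%). Over all clusters, dim ones included, 234 (1.06%) had an unadjusted p under 0.01. The shares above the median lie below what these thresholds call when nothing differs, and the share over all clusters lies near it. The 35 named genes had a median mean signal of 6.83, against 8.18 for all 10023, so they lay mostly among the dimmer genes of the set. The plot of the difference against the signal shows this spread.

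**Figure D1:**
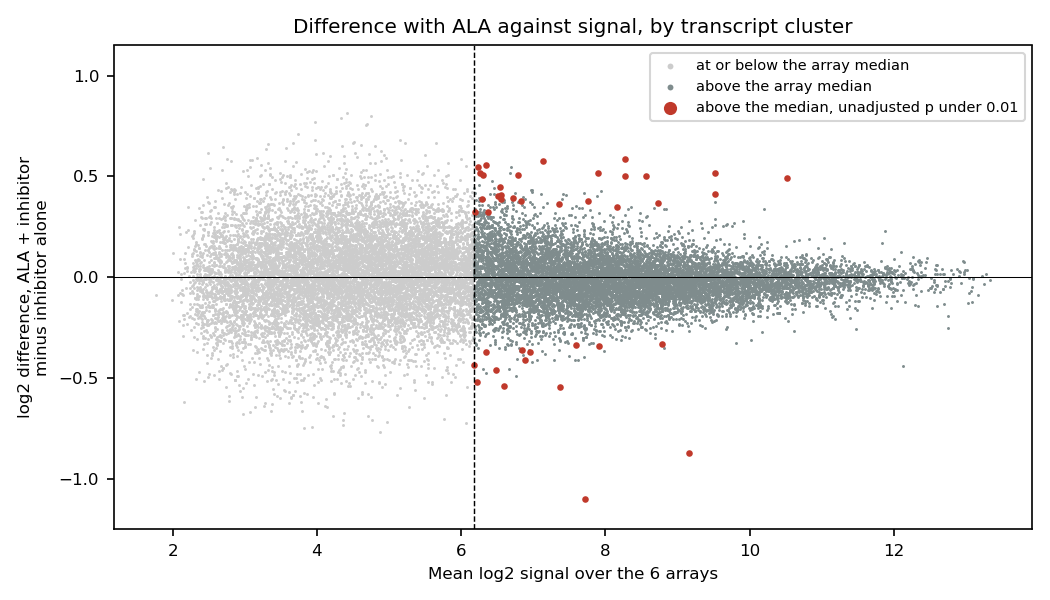
Log2 difference (ALA plus inhibitor minus inhibitor alone, mean of 3 passages) against the mean log2 signal over the 6 arrays, 1 point per transcript cluster. The dashed line is the array median of 6.18, and red points are the 40 clusters above it with an unadjusted p under 0.01, many of them close to the line.

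Across the 10023 genes the middle of the distribution lay just under 0. The median difference was -0.02, and 1% of genes lay below -0.28 and 1% above 0.31 on the log2 scale. By passage the median difference was 0.02 in passage 6, -0.02 in passage 7 and -0.05 in passage 8. The mean difference was lower with ALA and inhibitor in 57.1% of genes and higher in 42.9%. It was lower in all 3 passages in 17.1% of genes and higher in all 3 in 10.6%. The arrays of the groups did not overlap, with all 3 ALA plus inhibitor arrays below, in 4.78% of genes and, with all 3 above, in 3.22%. Across genes, which are not independent replicates, the passage differences correlated at r = 0.05 between passages 6 and 7, -0.09 between 6 and 8 and 0.21 between 7 and 8. These shares are the background for the gene lists below.

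Genes of cholesterol synthesis and uptake were measured lower with ALA and inhibitor in all 17 members above the array median, a direction found in 57.1% of all genes. The median over the list was -0.17, against -0.02 over all genes. In 13 of the 17 the difference was lower in all 3 passages (17.1% of all genes). In 8 the arrays of the groups did not overlap (4.78% of all genes), and 4 had an unadjusted p under 0.05 with a lower level (1.06% of all genes). None of the 17 passed the adjusted test (0 of 17, smallest limma adjusted p 0.982). The list's median was -0.06 in passage 6, -0.23 in passage 7 and -0.23 in passage 8, so passages 7 and 8 carried most of the difference. The mean signal of the 17 genes on each array was 10.22, 10.07 and 10.13 with ALA and inhibitor, against 10.27, 10.28 and 10.34 with the inhibitor alone, in passage order. All 3 arrays with ALA and inhibitor lay below all 3 with the inhibitor alone, the closest being 10.22 and 10.27 in passage 6. Such separation was not particular to this list. Over the 14 measured genes of polyunsaturated fatty acid synthesis the means were 8.53 to 8.69 against 8.74 to 8.77. Over 11 osteoblast and chondrocyte markers they separated the other way, at 5.53 to 5.57 against 5.49 to 5.52.

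The members at an unadjusted p under 0.05 sit at separate steps of the sterol pathway. Mvd, the enzyme that makes isopentenyl diphosphate from mevalonate diphosphate, had log2 signals of 9.61, 9.60 and 9.48 with ALA and inhibitor and 9.69, 9.86 and 9.88 with the inhibitor alone. The groups did not overlap, and the difference was -0.25 ± 0.10 (SE, 95% interval -0.46 to -0.03, limma adjusted p 0.982). Cyp51, the lanosterol demethylase, had 10.36, 10.10 and 9.64 with ALA and inhibitor and 10.43, 10.37 and 10.11 with the inhibitor alone. It was lower within each passage while the groups overlapped, with a difference of -0.27 (95% interval -0.54 to 0.00). Sc5d, which places the double bond of the sterol B ring late in the pathway, had 11.40, 11.25 and 11.22 with ALA and inhibitor and 11.50, 11.51 and 11.46 with the inhibitor alone, with no overlap (difference -0.20 ± 0.09 SE). Dhcr7, the last enzyme before cholesterol, was lower by a similar amount in each passage, at -0.22 ± 0.09 (SE), although its groups overlapped because passages differed in level.

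The remaining sterol genes lay between -0.21 and -0.08. Stard4, a cytosolic sterol carrier, measured 7.97, 7.75 and 7.91 with ALA and inhibitor and 7.99, 8.05 and 8.22 with the inhibitor alone. Its passage 6 arrays were close together and the other passages apart, which was also the pattern of Lss and Hsd17b7. Hmgcs1, the enzyme that makes HMG-CoA, was at 12.14, 11.94 and 12.19 with ALA and inhibitor and 12.16, 12.20 and 12.29 with the inhibitor alone, and its groups overlapped. Sqle, the squalene epoxidase, was higher with ALA and inhibitor in passage 6 (0.21) and lower in passage 7 (-0.22) and passage 8 (-0.27). Insig1, which holds SREBP precursors in the endoplasmic reticulum when sterols are plentiful, differed by -0.06 (95% interval -0.27 to 0.14) with groups that overlapped. The sterol sensing list that holds Insig1 had 7 of 8 members lower (57.1% of all genes), with a median of -0.07.

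Promoter sequence was not used in choosing these genes. Windows of 250 bases before the gene start, from RefSeq on GRCm38.p6, were held for 13 of the 17 genes. These were 16 windows, since a gene can have several starts. The letters CCAAT, on either strand, occurred in 13 of the 16 windows (81.2%), at least 1 for each of the 13 genes, and in 33.8% of 32851 promoter windows. A spelling of the sterol regulatory element, TCACNCCAC on either strand, occurred in 1 of the 16 (6.25%, Hmgcs1) and in 1.05% of all windows. The looser TCACNNCAC, which contains it, occurred in 4 of the 16 (25%) and in 3.11% of all windows, and TCANNCCAC, which also contains it, in 1 of the 16 and in 3.52%. The narrower TCACCCCAC occurred in 1 of the 16 and 0.496% of all windows. A pair of longer spellings, which begin 1 letter earlier, occurred in 0 and 1 of the 16 and in 0.0731% and 0.609% of all windows. For the lipogenic genes described next, CCAAT occurred in 7 of 12 windows (58.3%), TCANNCCAC in 3 of 12, and the other spellings in 0. A match is a description of the letters, not a site shown to be bound. These shares belong to the genes of the lists and carry no information on the difference with ALA. Below are Mvd and Sc5d, both with non-overlapping groups, and Hmgcs1, the gene with both matches, 5′ to 3′ on the gene's strand, with capitals marking CCAAT or its reverse complement ATTGG and TCACCCCAC. Mvd lies at chr8:122443423-122443672 (minus strand), Sc5d at chr9:42264301-42264550 (minus strand) and Hmgcs1 at chr13:119690101-119690350 (plus strand).
Mvd: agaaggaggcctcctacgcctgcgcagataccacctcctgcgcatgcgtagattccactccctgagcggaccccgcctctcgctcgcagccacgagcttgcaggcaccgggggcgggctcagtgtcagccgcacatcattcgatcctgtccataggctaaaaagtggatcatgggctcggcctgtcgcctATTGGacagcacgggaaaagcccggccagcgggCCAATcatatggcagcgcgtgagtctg
Sc5d: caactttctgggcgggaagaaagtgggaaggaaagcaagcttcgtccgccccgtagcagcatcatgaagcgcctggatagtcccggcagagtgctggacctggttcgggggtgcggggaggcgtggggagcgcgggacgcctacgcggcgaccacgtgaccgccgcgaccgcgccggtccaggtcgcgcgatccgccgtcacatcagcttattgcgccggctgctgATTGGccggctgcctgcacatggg
Hmgcs1: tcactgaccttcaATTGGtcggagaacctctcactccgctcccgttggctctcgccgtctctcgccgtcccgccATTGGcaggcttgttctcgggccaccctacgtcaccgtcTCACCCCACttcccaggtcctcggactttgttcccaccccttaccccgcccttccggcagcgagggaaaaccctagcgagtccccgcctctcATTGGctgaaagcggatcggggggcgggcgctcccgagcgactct

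Genes of de novo lipogenesis, which build fatty acids from acetyl-CoA, were measured lower with ALA and inhibitor in all 12 members above the array median (57.1% of all genes). Their median was -0.13, with -0.12 in passage 6, -0.09 in passage 7 and -0.14 in passage 8. In 7 of the 12 the difference was lower in all 3 passages (17.1% of all genes), and in 3 the groups did not overlap (4.78% of all genes). Only 1 had an unadjusted p under 0.05 with a lower level (1.06% of all genes). That gene, Acaca, encodes the acetyl-CoA carboxylase that makes malonyl-CoA for fatty acid synthesis, and it was the only listed gene among those named for the smallest p-values. Acaca had 8.75, 8.59 and 8.52 with ALA and inhibitor and 8.87, 8.98 and 8.99 with the inhibitor alone. All 3 ALA plus inhibitor arrays were below all 3 inhibitor arrays, with a difference of -0.33 ± 0.10 (SE, 95% interval -0.56 to -0.11). Its unadjusted p was under 0.01 and its limma adjusted p was 0.883.

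Elovl6, which extends palmitate, had 9.87, 9.57 and 10.17 with ALA and inhibitor and 10.18, 9.91 and 10.46 with the inhibitor alone. Its passages differed in level, and within each one ALA plus inhibitor was lower by close to the same amount (mean -0.31, 95% interval -0.62 to 0.00). Acly, which supplies acetyl-CoA from citrate, had 11.20, 11.11 and 11.15 with ALA and inhibitor and 11.29, 11.29 and 11.32 with the inhibitor alone, with no overlap. Fasn, the fatty acid synthase, differed by -0.13 (95% interval -0.33 to 0.08), and Scd1, the stearoyl-CoA desaturase, by -0.08 (95% interval -0.27 to 0.12). Thrsp, a regulator of lipogenesis, was spread widely over passages, at 8.99, 8.37 and 7.03 with ALA and inhibitor and 9.34, 8.35 and 7.59 with the inhibitor alone. The plot of sterol, fatty acid and PUFA synthesis genes shows each passage.

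**Figure D2:**
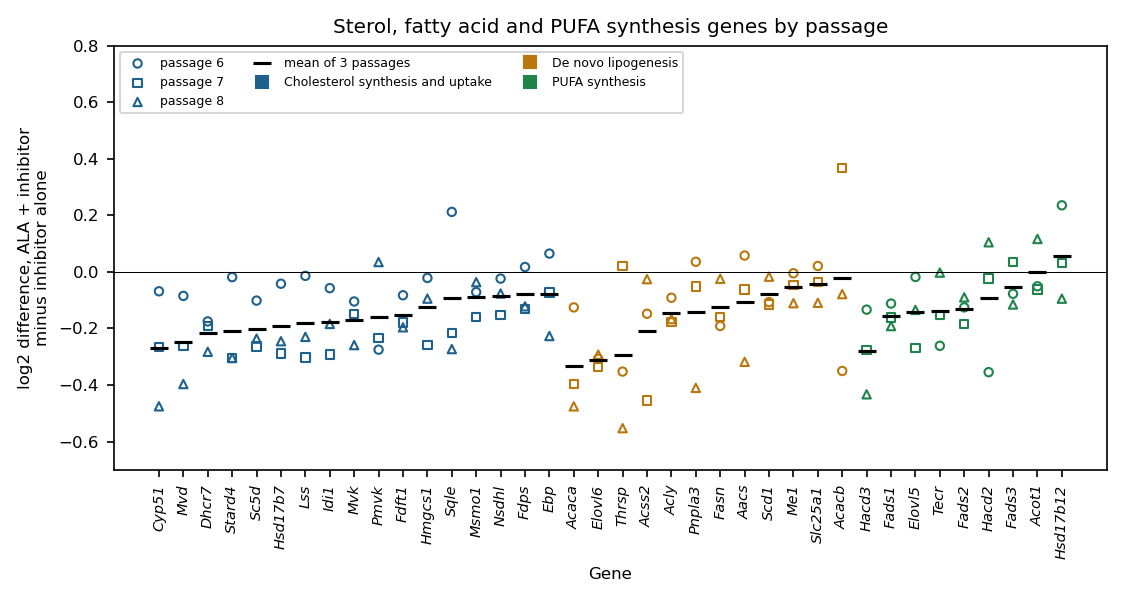
Log2 difference (ALA plus inhibitor minus inhibitor alone) of each gene above the array median in 3 lists, with open symbols for passages 6, 7 and 8 and a black bar for their mean. Elovl6 is listed in both lipogenesis and PUFA synthesis and is drawn once. The bars of all 17 sterol genes lie below 0, while single passages of Sqle, Pmvk, Fdps and Ebp lie above it.

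Genes of the polyunsaturated fatty acid (PUFA) synthesis list, which holds the route on which the inhibitor acts, were lower in 8 of 10 members (57.1% of all genes). Their median was -0.14, and 6 were lower in all 3 passages (17.1% of all genes). The 10 include Elovl6, which extends palmitate and is also counted among the 12 lipogenic genes. Its difference was the lowest of the 10. Fads2 itself, the inhibitor's target enzyme, had 12.65, 12.62 and 12.64 with ALA and inhibitor and 12.77, 12.80 and 12.73 with the inhibitor alone. The groups did not overlap and the arrays within a group were close, yet the difference was -0.13 (95% interval -0.32 to 0.06, limma adjusted p 1). Fads1 had 11.67, 11.66 and 11.55 with ALA and inhibitor and 11.78, 11.82 and 11.74 with the inhibitor alone, again with no overlap. Elovl5, which lengthens the product of the delta-6-desaturase, was lower within each passage, at -0.14 (95% interval -0.34 to 0.06), and its groups overlapped. The array measures transcripts, so these values say nothing of the enzyme's activity under the inhibitor.

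The lipid lists were also measured lower with ALA in the absence of the inhibitor. Those ALA and control arrays do not enter the mean differences above, but they do enter the model's estimate of the spread behind its p-values. In ALA against control, 16 of the 17 sterol genes were lower (54.2% of all genes), with a median of -0.21, and 11 of 12 lipogenic genes, with a median of -0.13. The PUFA list had 9 of 10 lower and a median of -0.07. The difference between the ALA effect with and without the inhibitor was tested as an interaction, and it had an unadjusted p under 0.05 for 0 of the 17 sterol genes, 0 of the 12 lipogenic genes and 0 of the 10 PUFA genes, against 2.36% of all genes. This does not show that the effects were alike: the interaction of Cyp51, for example, was 0.22 ± 0.17 (SE) and that of Acaca -0.30 ± 0.14 (SE). For the 17 sterol genes the mean signal was 9.95, 9.73 and 9.92 with ALA alone and 10.09, 10.01 and 10.20 in control, in passage order. Both groups that received the inhibitor were thus at higher levels for these genes than ALA alone, and the inhibitor alone was at a higher level than control in each passage. The comparison of inhibitor alone with control shares its inhibitor arrays with the one described here, and its median over the list was 0.19.

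Targets of the LXR nuclear receptors, which sense oxysterols, had 6 of 8 members lower (57.1% of all genes), with a median of -0.06. Pltp, the phospholipid transfer protein, had 9.91, 9.41 and 9.62 with ALA and inhibitor and 10.07, 9.87 and 9.98 with the inhibitor alone. It was lower in each passage with 1 array overlapping, at -0.33 ± 0.12 (SE, limma adjusted p 0.944). Phospholipid remodelling genes, which insert fatty acids into membrane lipids, were lower in 9 of 11 (57.1% of all genes) with a median of -0.07. Lpcat3, the acyltransferase that prefers polyunsaturated chains, differed by -0.07.

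Genes that respond to PPAR receptors, for which ALA is a known ligand, were divided, with 7 of 12 higher and 5 lower and a median of 0.00. Angptl4, a secreted inhibitor of lipoprotein lipase, had 10.45, 10.83 and 11.01 with ALA and inhibitor and 10.30, 10.75 and 11.04 with the inhibitor alone. Its passages differed more than its groups (difference 0.07, 95% interval -0.26 to 0.40). Pdk4, a kinase that holds back pyruvate oxidation, had 7.77, 7.65 and 7.54 with ALA and inhibitor and 7.87, 7.88 and 7.81 with the inhibitor alone, with no overlap and the sign opposite to that of Angptl4. Plin2, a lipid droplet coat protein, differed by 0.00 (95% interval -0.22 to 0.23). Mitochondrial beta-oxidation genes had 7 of 17 higher and 10 lower, and peroxisomal oxidation genes 4 of 14 higher and 10 lower, with medians of -0.01 and -0.01.

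Triacylglycerol synthesis genes were divided evenly, with 8 of 16 higher and 8 lower. Mogat2, a monoacylglycerol acyltransferase known from the intestine, had 6.69, 6.97 and 6.60 with ALA and inhibitor and 6.52, 6.50 and 6.08 with the inhibitor alone. Its signal was near the array median and the groups did not overlap, with a difference of 0.39 ± 0.12 (SE, limma adjusted p 0.868). Lipolysis and lipid droplet genes had 8 of 15 higher and 7 lower. Abhd5, the activator of adipose triglyceride lipase, was at 9.85, 9.93 and 9.90 with ALA and inhibitor and 9.81, 9.68 and 9.42 with the inhibitor alone, with no overlap and the widest gap in passage 8.

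Markers of the adipocyte state lay close together in the 2 groups. Of 25 adipocyte markers, 15 were higher and 10 lower, with a median of 0.02, and 0 had an unadjusted p under 0.05 (2.35% of all genes). Adipoq, the hormone adiponectin, had 13.01, 13.09 and 13.19 with ALA and inhibitor and 12.98, 13.12 and 13.20 with the inhibitor alone (difference 0.00, 95% interval -0.20 to 0.19). Pparg, the master regulator of adipogenesis, differed by -0.10 (95% interval -0.31 to 0.10), and Fabp4, the fatty acid carrier of fat cells, by -0.03 (95% interval -0.26 to 0.20). Lep, the satiety hormone leptin, had 7.48, 7.31 and 7.92 with ALA and inhibitor and 6.78, 7.41 and 7.77 with the inhibitor alone, and the groups overlapped. Ffar4, the omega-3 fatty acid receptor, had 8.73, 8.83 and 9.17 with ALA and inhibitor and 8.18, 8.74 and 9.21 with the inhibitor alone, so passage 6 alone held a gap.

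Preadipocyte and stromal genes were lower in 12 of 15 members (57.1% of all genes), with a median of -0.08. In 6 the difference was lower in all 3 passages (17.1% of all genes). The 3 markers of the fixed stromal set did not share this direction. Their mean was 8.64 to 8.79 with ALA and inhibitor and 8.56 to 8.71 with the inhibitor alone. Ly6c1, a surface antigen of stromal and endothelial cells, had 7.80, 6.93 and 7.17 with ALA and inhibitor and 7.93, 7.62 and 7.53 with the inhibitor alone. It was lower in each passage, at -0.39 ± 0.13 (SE, limma adjusted p 0.938), and its groups overlapped. Extracellular matrix genes were divided, with 12 of 27 higher and 15 lower, and Col8a1, a network-forming collagen, was higher in all 3 passages at 0.37 (limma adjusted p 0.982). In the longer lists of markers of other cell types, 2 of 11 macrophage and 1 of 10 endothelial genes lay above the array median.

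**Figure D3:**
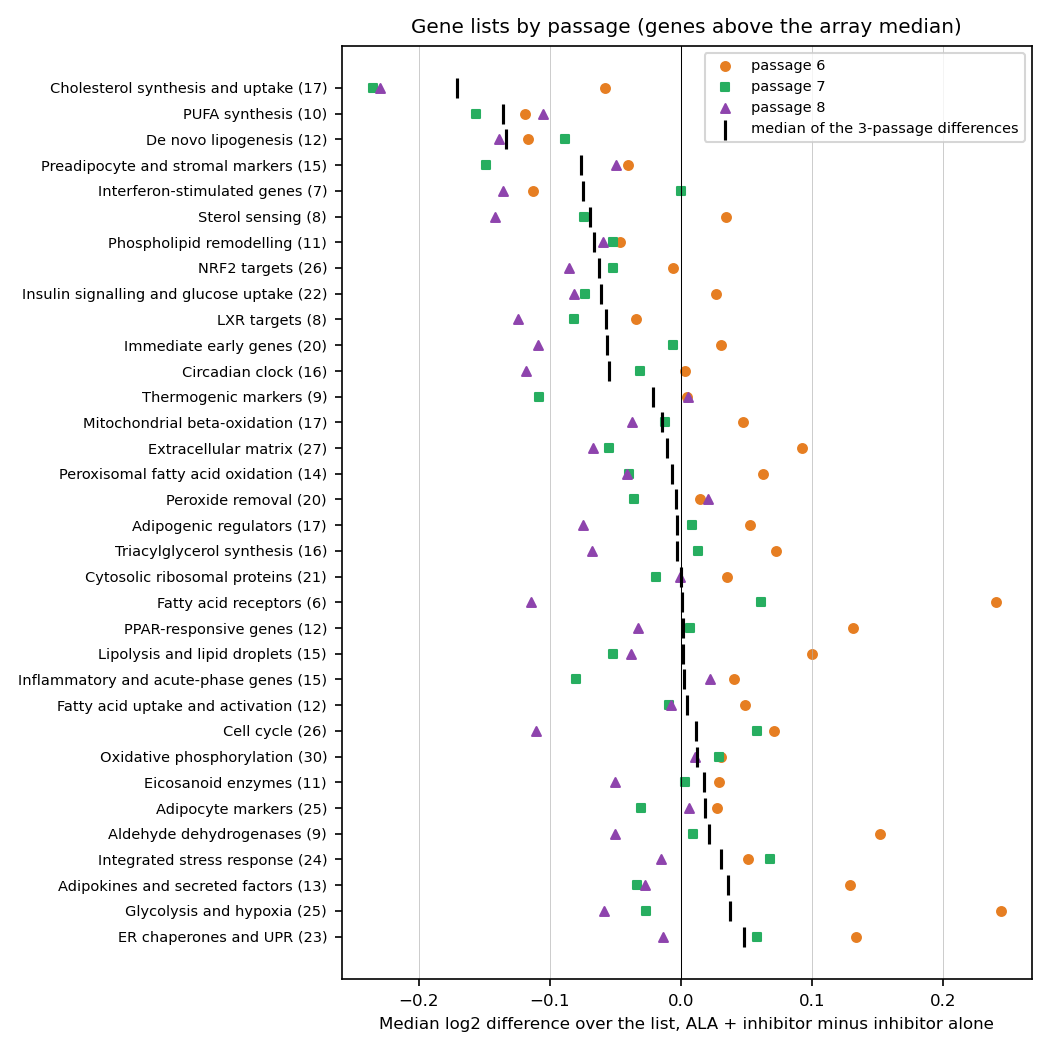
Median log2 difference (ALA plus inhibitor minus inhibitor alone) over the genes of each list that lie above the array median, by passage (symbols) and for the mean of the passages (black bar), with the number of genes in brackets. The lists of macrophage, endothelial, muscle, and osteoblast and chondrocyte markers are not drawn. Cholesterol, PUFA and lipogenesis genes have the lowest bars and lie below 0 in all 3 passages. LXR targets, phospholipid remodelling genes, preadipocyte and stromal markers and NRF2 targets also lie below 0 in all 3. Passage 6 lies far above the other passages for glycolysis and hypoxia genes.

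Stress and redox lists showed small medians. NRF2 targets, the genes of the electrophile response, were lower in 19 of 26 (57.1% of all genes) with a median of -0.06. Txnrd1, the cytosolic thioredoxin reductase, had 8.67, 8.27 and 8.50 with ALA and inhibitor and 8.83, 8.76 and 8.66 with the inhibitor alone (difference -0.27, limma adjusted p 0.982). Hmox1, the haem oxygenase, differed by 0.01 and Nqo1, a quinone reductase, by -0.08. Endoplasmic reticulum chaperones and genes of the unfolded protein response were higher in 20 of 23 (42.9% of all genes), with a median of 0.05. That list stood at 0.13 in passage 6, 0.06 in passage 7 and -0.01 in passage 8. Of the 23, 7 were higher in all 3 passages (10.6% of all genes). Without the inhibitor array of passage 6 the list's median was 0.0049 and 10 of 23 were lower, and without the ALA plus inhibitor array of passage 7 the median was 0.03 and 8 were lower. Sdf2l1, a chaperone cofactor, was the member with the smallest p, at 0.20 ± 0.10 (SE).

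Glycolysis and hypoxia genes were higher in 20 of 25 (42.9% of all genes), and 1 array decided this. The list's median was 0.24 in passage 6, -0.03 in passage 7 and -0.06 in passage 8. The mean signal of the list was 10.24 on the inhibitor array of passage 6 and 10.38 to 10.62 on the other 11 arrays. Adm, the hypoxia-responsive peptide adrenomedullin, had 8.19, 8.99 and 8.67 with ALA and inhibitor and 7.35, 8.86 and 9.12 with the inhibitor alone. Car9, a hypoxia-responsive carbonic anhydrase, had 9.18, 9.46 and 9.30 with ALA and inhibitor and 8.36, 9.53 and 9.36 with the inhibitor alone. Both were lowest on that array. Without it the list's median was -0.07, and its part in the other differences of passage 6 was not tested beyond the alternatives that leave it out.

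Insulin signalling genes were lower in 16 of 22, immediate early genes in 14 of 20 and circadian clock genes in 12 of 16 (57.1% of all genes). Their medians were -0.06, -0.06 and -0.05. Oxidative phosphorylation genes were higher in 19 of 30 (42.9% of all genes) with a median of 0.01. Ribosomal protein genes had 10 of 21 higher and 11 lower with a median of 0.00. Ndufb8, a subunit of respiratory complex I, had 8.47, 8.39 and 8.17 with ALA and inhibitor and 8.10, 8.14 and 7.74 with the inhibitor alone. Its groups did not overlap (difference 0.35 ± 0.10 SE, limma adjusted p 0.821). In 4 of the 30 the groups did not overlap, with ALA and inhibitor higher (3.22% of all genes). Only Ndufb8, 1 of the 30, had an unadjusted limma p under 0.05, against 2.35% of all genes. Cell cycle genes were higher in 16 of 26 (42.9% of all genes) with a median of 0.01. Of the 26, 2 had an unadjusted limma p under 0.05 (2.35% of all genes). Kif18b, a mitotic kinesin, was higher by 0.29 (limma adjusted p 0.938).

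The genes with the smallest p-values came from outside the lists, Acaca excepted. The rule named 15 higher and 13 lower genes, with sizes of 0.36 to 0.58 and 0.33 to 0.87 on the log2 scale, and limma adjusted p-values of 0.78 to 0.926. All were the same way in all 3 passages because the rule asked for it. The rule also favours groups that do not overlap, so the separations given below are no further evidence. Mean signals were below 7 for 8 of the 15 and 8 of the 13. Among the higher genes, Egfl8, which encodes a secreted protein with EGF-like repeats, had 6.79, 6.65 and 6.44 with ALA and inhibitor and 6.25, 6.07 and 5.88 with the inhibitor alone. Rcsd1, which encodes a regulator of actin capping, had 7.45, 7.42 and 7.40 with ALA and inhibitor and 6.96, 6.95 and 6.63 with the inhibitor alone. Both had groups that did not overlap, with differences of 0.56 ± 0.13 and 0.58 ± 0.14 (SE).

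Card9, an adaptor of innate immune signalling, had 8.04, 8.32 and 8.12 with ALA and inhibitor and 7.71, 7.83 and 7.38 with the inhibitor alone. Tchp, a keratin-binding protein of the centrosome, was the brightest of the higher genes, at 9.60, 9.81 and 9.76 with ALA and inhibitor and 9.34, 9.40 and 9.19 with the inhibitor alone. Each was apart in the 2 groups, by 0.52 and 0.41. Rfc5, a subunit of the DNA clamp loader, Haao, an enzyme of tryptophan breakdown, and Gys2, the liver form of glycogen synthase, were higher by 0.50, 0.55 and 0.38. Fas, the death receptor, Loxl4, a lysyl oxidase, and Cartpt, a neuropeptide precursor, were higher by 0.39, 0.36 and 0.39. Adprm, Ccdc85b, Rd3, B3gnt8 and Klhdc1 made up the rest of the 15.

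The largest difference among the named genes was that of 2900060B14Rik, an uncharacterised transcript, at 8.60, 9.12 and 8.46 with ALA and inhibitor and 9.58, 9.83 and 9.38 with the inhibitor alone. Its groups were far apart, with a difference of -0.87 ± 0.23 (SE, 95% interval -1.38 to -0.36, limma adjusted p 0.791). Its level was 8.47, 8.45 and 9.10 with ALA alone and 8.49, 8.65 and 9.10 in control, so the inhibitor alone was the group that stood apart. Aqp1, a water channel, had 6.96, 7.09 and 7.26 with ALA and inhibitor and 7.38, 7.76 and 7.80 with the inhibitor alone, with no overlap (difference -0.54). Map3k5, the stress kinase ASK1, and Pcolce2, an enhancer of procollagen processing, were lower by close amounts, at -0.52 and -0.54. Mad2l2, a subunit of a translesion DNA polymerase, Rnaseh2b, a subunit of RNase H2, and Taok3, a protein kinase, differed by -0.34, -0.44 and -0.37. Arsj, Zbtb39, Fryl, Rnf144b and Pinx1 were the other lower genes. The plot of the named genes gives every array.

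**Figure D4:**
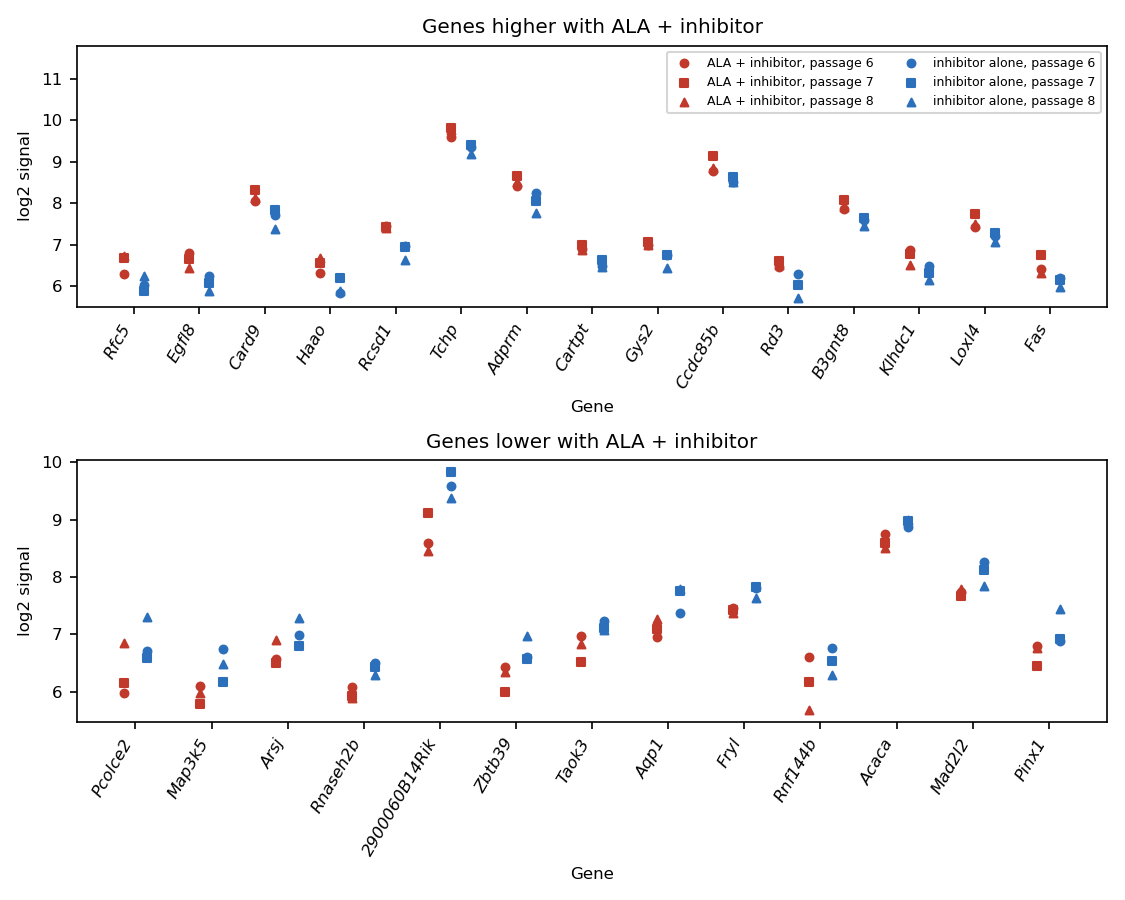
Log2 signal of the 15 higher and 13 lower named genes on each of the 6 arrays, red for ALA plus inhibitor and blue for inhibitor alone, with 1 symbol per passage. In all 15 higher genes and in 10 of the 13 lower genes the red and blue symbols of a gene do not overlap. Choosing genes by a small p and a shared direction favours this. Over all genes the shares were 3.22% (higher) and 4.78% (lower).

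Across the 10023 genes, the ALA differences with and without the inhibitor correlated at r = 0.0772. Of these genes, 32.1% were lower in both, 20.8% higher in both and 47.1% of opposite sign. The passage differences of the inhibitor comparison correlated at only -0.09 to 0.21 with each other. As passages differed this much, r = 0.0772 does not show that the inhibitor changed the ALA response. Of the 15 higher named genes, 5 were also higher with ALA over control (45.8% of all genes), and of the 13 lower ones 7 were also lower (54.2% of all genes). Egfl8 and Rcsd1 differed by -0.41 and -0.12 with ALA over control.

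The interaction, the ALA difference with the inhibitor minus that without it, gave 0 clusters at an adjusted p under 0.05 by limma (0% of clusters, smallest adjusted p 0.996). Of the clusters above the median, 27 had an unadjusted p under 0.01 (0.245% of 11025), 18 higher (0.163%) and 9 lower (0.0816%). This split changed with arrays left out and with the processing. It was 10 higher and 17 lower without the ALA plus inhibitor array of passage 8. Without the inhibitor array of passage 8 it was 8 and 9, and without that of passage 7 it was 14 and 15. With all arrays kept, it was 12 and 11 when arrays were centred and 30 and 27 with an intensity trend. Quantile normalization gave 15 and 8, and passage as a random effect 13 and 7. Without the ALA array of passage 7, which correlated less with the other arrays, it was 19 higher and 17 lower. Among named genes, 237 had an unadjusted p under 0.05 (2.36%). This share and that of clusters under 0.01 lie below what such thresholds call when nothing differs. All 12 genes named for it had ALA differences of opposite sign in the 2 settings, which choosing them by this difference favours. Egfl8 had the largest interaction among them, at 0.97 ± 0.18 (SE, limma adjusted p 0.996). Cyb5rl, related to cytochrome b5 reductases, differed by -0.16 with the inhibitor and by 0.52 without it. Coq6, an enzyme of ubiquinone synthesis, differed by -0.18 with the inhibitor and by 0.35 without it, and Mttp, the microsomal triglyceride transfer protein, by -0.27 and 0.25. Gys2, Loxl4, 1700018B08Rik, Gtf2h4 and Rcsd1 had positive interactions of 0.54 to 0.70, and Zscan12, Arsj and Gchfr negative ones of -0.64, -0.47 and -0.47.

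Car3 and Apoc1 were the adipocyte markers with an unadjusted limma interaction p under 0.05, which is 2 of 25 (2.36% of all genes). Whether so small a count exceeds that background was not tested. Car3, a carbonic anhydrase abundant in fat, had 9.04, 8.71 and 10.10 with ALA and inhibitor and 9.06, 8.86 and 9.96 with the inhibitor alone, against 10.26, 10.70 and 11.20 with ALA alone and 9.77, 9.98 and 10.48 in control. The ALA arrays were above the control arrays in each passage, the groups with the inhibitor overlapped, and the interaction was -0.65 (limma adjusted p 0.996). Apoc1, an apolipoprotein, differed by -0.15 with the inhibitor, lower in all 3 passages, and by -0.63 without it (interaction 0.47, limma adjusted p 0.996).

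**Figure D5:**
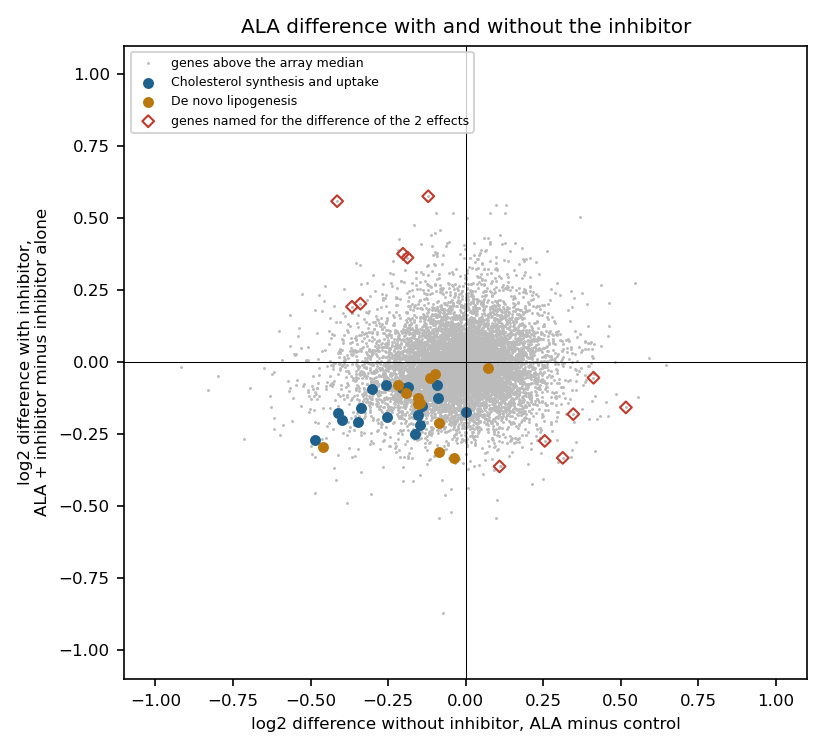
Log2 difference with ALA in the presence of the inhibitor (vertical) against the difference with ALA in its absence (horizontal), 1 point per gene above the array median. The 17 sterol genes (blue) and 12 lipogenic genes (brown) lie mostly at the lower left, and the 12 genes named for the interaction (red diamonds) lie in the upper left or lower right.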

How the data were processed

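RNA of 12 cultures was measured on whole-transcript arrays, 1 culture per treatment and passage. The values are log2 signals, 1 per transcript cluster and array, deposited by the authors. Per the submitters' processing notes the method was RMA, a background correction, between-array normalization and probe summary, which compresses differences between dim clusters. Its software and version are not given in the sources used here. Symbols came from GEO's platform annotation, with 19509 clusters holding 1 symbol and 2595 unnamed here. All 19509 IDs were found in the RefSeq table. A gene with further clusters (29 in all) was taken at its brightest cluster.

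One linear model with treatment and passage was fitted to all 12 arrays and all 22104 clusters in R 4.3.3 with limma 3.58.1 (6 residual and 3.96 prior degrees of freedom), and tests were two-sided with Benjamini-Hochberg adjustment over all clusters. The filter on signal was applied after the test. The fit was also run on simulated data with added differences larger than most of those reported here. How well it finds smaller ones was not tested. Passage was kept as a block because same-passage arrays of the 2 groups deviated together from their group means (r = 0.34, 0.27 and 0.52 in passages 6, 7 and 8). The series' design mentions weights in the fit but not which ones, and array weights were run as an alternative. Others were no replicate block, passage as a random effect, the 6 arrays alone, each array or passage left out, centred or quantile-normalized arrays, an intensity trend, and a test of the brighter clusters alone. Arrays give no read depth, and their number limits the precision.

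Named genes were up to 15 higher and 15 lower ones by adjusted p, and otherwise by the smallest unadjusted p under 0.01 with the same direction in all 3 passages. Up to 4 genes of each of 38 lists with the smallest p and the same direction in all 3 passages, a fixed set of lipid and adipocyte genes, and 6 genes each way for the interaction were added. Some of these are left out of the text for length. That choice was made knowing the values, as was that of the genes singled out for their pattern (Stard4, Thrsp, Sqle, Adm, Car9). The genes described and the lists were chosen with earlier results of these data known. List members that the table did not name were not analysed here. Lists were described by counts and medians, with no test.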

Additional observations from a re-analysis of the deposited data

How the results depend on the processing

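No cluster above the array median passed an adjusted p under 0.05 under any setting tried. The count of clusters at an unadjusted p under 0.01 was 40 and moved to 17 with no replicate block, 25 with the 6 compared arrays alone, 65 with an intensity trend, 74 with array weights and 91 when the brighter clusters alone were tested. It ranged from 6 to 70 with arrays or passages left out, and was 70 without the inhibitor array of passage 6, 14 without that of passage 7, 24 without that of passage 8, 21 without passage 7 and 6 without passage 8. The interaction count was 27 and moved to 9 with no replicate block, 57 with the trend, 64 with weights and 75 with the brighter clusters alone, and ranged from 11 to 36 with arrays or passages left out. It was 16 without the ALA plus inhibitor array of passage 7, 17 without the inhibitor array of passage 8, and 13, 12 and 11 without passages 6, 7 and 8. The other settings stayed within 1.5 times. The causes were not tested. Of 155 named genes, up to 9 had the other sign under a setting (9 without the ALA plus inhibitor array of passage 7). The median over the sterol list ranged from -0.24 to -0.10 with 16 to 17 of 17 lower, that over lipogenesis from -0.18 to -0.10 with 11 to 12 lower, and that over PUFA synthesis from -0.16 to -0.10 with 8 to 9 lower. Of the 38 list medians, 3 to 11 had the other sign with 1 compared array left out, most (11) without the inhibitor array of passage 6. Leaving out passage 6, 7 or 8 turned 10, 5 and 6 of them, array weights 5 and quantile normalization 7. Centring arrays, which shifts every gene by 1 constant, turned 10. With 3 arrays a group, no single difference passed the adjusted test, which does not show that levels were alike.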
